A study of Mus musculus with 6 samples.

Results

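Cholesterol and fatty acid synthesis genes that are targets of the sterol regulatory element binding proteins (SREBPs) were examined in mouse intestinal epithelium, as 36 genes taken by symbol out of the 54532 genes of the count table. They form a sterol arm of 21 genes and a fatty acid arm of 15 genes. Other genes of these pathways were not analysed here unless named below. All 6 libraries, made from polyA RNA, came from mice labelled Apoe-/-, so that both groups carry the same alteration of the apolipoprotein E gene. In the first group, mice received the yeast Candida albicans (C. albicans) by gavage every 3 days for 2 weeks, and in the second they received phosphate-buffered saline (PBS) on the same schedule, with 3 libraries in each. The sources used here give no age, sex, diet or part of the intestine. The labels do not say whether a library came from 1 mouse or from a pool, so p-values measure the spread between these libraries only, which may be partly technical. Apoe itself was counted in both groups, at 83.2 ± 23.3 CPM (counts scaled to library size) with PBS and 62.1 ± 12.5 CPM with C. albicans (mean ± SD, n = 3 each), and the sources used here do not state which part of the gene is altered, so these counts do not check the label.

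As background, animal cells make cholesterol from acetyl-CoA through mevalonate, the prenyl diphosphates, squalene and lanosterol. When sterols in the endoplasmic reticulum are scarce, the escort protein SCAP carries the SREBPs to the Golgi, where proteases release the part that enters the nucleus and raises transcription of these enzymes. When sterols are plentiful, INSIG proteins hold SCAP back. SREBP-2 (Srebf2) acts mostly on sterol genes, while SREBP-1 (Srebf1) acts mostly on fatty acid genes, is itself raised by the sterol-sensing liver X receptors, and works beside ChREBP (Mlxipl), which responds to sugar. In the intestine, cholesterol synthesis is known to be active in crypts as well as in the absorbing cells of the villus, which also take up dietary and biliary cholesterol.

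The promoters of these genes commonly carry a sterol regulatory element beside sites for the factors NF-Y and Sp1. The stretches below lie upstream of the annotated start of 5 members, from RefSeq on GRCm38.p6, the assembly of mm10, and are shown because 3 of them stood lower in every C. albicans library, 1 encodes SREBP-2 itself and 1, Sc5d, stood higher. In the first 4 sequences the capitals mark a match to the sterol regulatory element TCACNCCAC with at most 1 base different, and in the last they mark the E-box CACGTG, another sequence that SREBPs can bind.
Hmgcs1 (chr13:119690169-119690267, plus strand): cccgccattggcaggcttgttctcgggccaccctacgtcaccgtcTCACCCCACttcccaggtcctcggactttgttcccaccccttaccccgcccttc
Cyp51 (chr5:4104752-4104850, minus strand): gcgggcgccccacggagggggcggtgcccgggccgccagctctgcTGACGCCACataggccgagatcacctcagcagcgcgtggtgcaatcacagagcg
Msmo1 (chr8:64733617-64733715, minus strand): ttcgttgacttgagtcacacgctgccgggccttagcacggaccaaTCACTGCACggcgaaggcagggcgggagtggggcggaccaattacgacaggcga
Srebf2 (chr15:82147062-82147160, plus strand): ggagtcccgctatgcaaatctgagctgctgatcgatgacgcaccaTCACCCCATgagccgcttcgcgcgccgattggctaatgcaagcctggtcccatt
Sc5d (chr9:42264348-42264443, minus strand): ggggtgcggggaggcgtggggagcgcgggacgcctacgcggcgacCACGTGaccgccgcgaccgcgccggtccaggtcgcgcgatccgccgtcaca
The match in Hmgcs1 is exact and begins 137 bases upstream of the start, while those in Cyp51, Msmo1 and Srebf2 differ from the element in 1 base and begin 108, 92 and 162 bases upstream. Msmo1 has another match with 1 base different 177 bases upstream, and Hmgcs1 has one 220 bases upstream.

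Motifs were searched on both strands in windows from 250 bases before to 50 bases after each annotated start, and 17 sterol arm genes and 12 fatty acid arm genes had such a window. An exact sterol regulatory element stood in 1 gene of each arm (Hmgcs1 and Mlxipl), beside 1.44% of the 27025 genes in the promoter table. With 1 base allowed to differ, a looser search added after the first, 9 of the 17 sterol arm genes (52.9%) and 4 of the 12 fatty acid arm genes (33.3%) had a match, against 26.7% of all genes. The letters CCAAT, read by NF-Y, stood in 94.1% of the sterol arm windows by gene, in 75% of the fatty acid arm and in 41.1% of all genes. The GC box GGGCGG, read by Sp1, stood in 94.1%, 50% and 38.2% in the same order, and the E-box in 23.5%, 16.7% and 8.09%. Besides Sc5d, the sterol arm genes with an E-box were Insig1, lower without overlap, and Hsd17b7 and Dhcr7, which overlapped between the groups. The windows of both arms are also richer in G and C, with medians of 62.3% and 62.0% against 52.8% for all genes, and GGGCGG is made of these bases only. These matches describe letters in a window and say nothing of binding.

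Totals lay between 21406930 and 24891735 counts per library, and CPM below use TMM-scaled totals. Of the 16313 genes tested with edgeR (quasi-likelihood test, Benjamini-Hochberg adjustment), 0 had an adjusted p under 0.05. The unadjusted p was under 0.05 for 2182 genes on the higher side and 2645 on the lower side, 29.6% in all, and by the Wald test of DESeq2 1414 and 1024 genes passed after adjustment. Scaled by library totals alone, the unadjusted calls were 861 higher and 5377 lower, and the median log2 fold change over genes went from -0.16 with TMM to -0.45. Every fold change below should therefore be read against -0.16. Epithelial markers were abundant in all libraries but divided between the groups. Epcam had 1500 to 2318 CPM with PBS and 3305 to 3743 CPM with C. albicans. Vil1 had 1486 to 3000 CPM with PBS and 3912 to 5237 CPM with C. albicans. Of the 8 markers, 5 had a log2 fold change above 0 and 3 below it. Krt18, the marker of lowest p, was lower without overlap (-1.42, SE 0.37). Liver and pancreas markers were near the limit of detection, with Alb at 0.340 CPM or less and Prss1 at 0 in every library. Smooth muscle markers set libraries apart within both groups, with a summed level of 7055, 524 and 3493 CPM in PBS replicates 1 to 3 and 1792, 234 and 206 CPM in C. albicans replicates 1 to 3. The share of mitochondrially encoded counts was 5.89% to 8.92% with PBS and 3.19% to 4.63% with C. albicans.

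The sterol arm stood lower with C. albicans along most of the pathway. Of its 21 genes, all tested, 18 had a log2 fold change below 0 (85.7%, beside 60.5% of all genes) and 3 above it (14.3%, beside 39.5%), with a median of -0.96. In 14 the highest C. albicans library lay under the lowest PBS library, which is 66.7% of the arm beside 18.1% of all genes tested. Only Sc5d and Stard4 were higher without overlap, 9.52% beside 17.6%. No member passed the adjusted threshold of 0.05 in edgeR's test (0% of all genes did, in either direction). At an adjusted p under 0.1, which 6.04% of all genes reached on the lower side and 6.61% on the higher side, there were 5 lower members (Mvk, Msmo1, Fdps, Fdft1 and Cyp51) and 2 higher ones. At an unadjusted p under 0.05, 14 were lower and 2 higher, beside 16.2% and 13.4% of all genes. By the DESeq2 Wald test, which covered 29009 genes, 9 lower and 2 higher members passed after adjustment, beside 3.53% and 4.87% of all genes. The 29009 include genes of low count that edgeR's filter left out, which lowers these 2 shares. In bulk tissue, fewer cells of a type and less RNA per cell cannot be told apart.

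**Figure D1:**
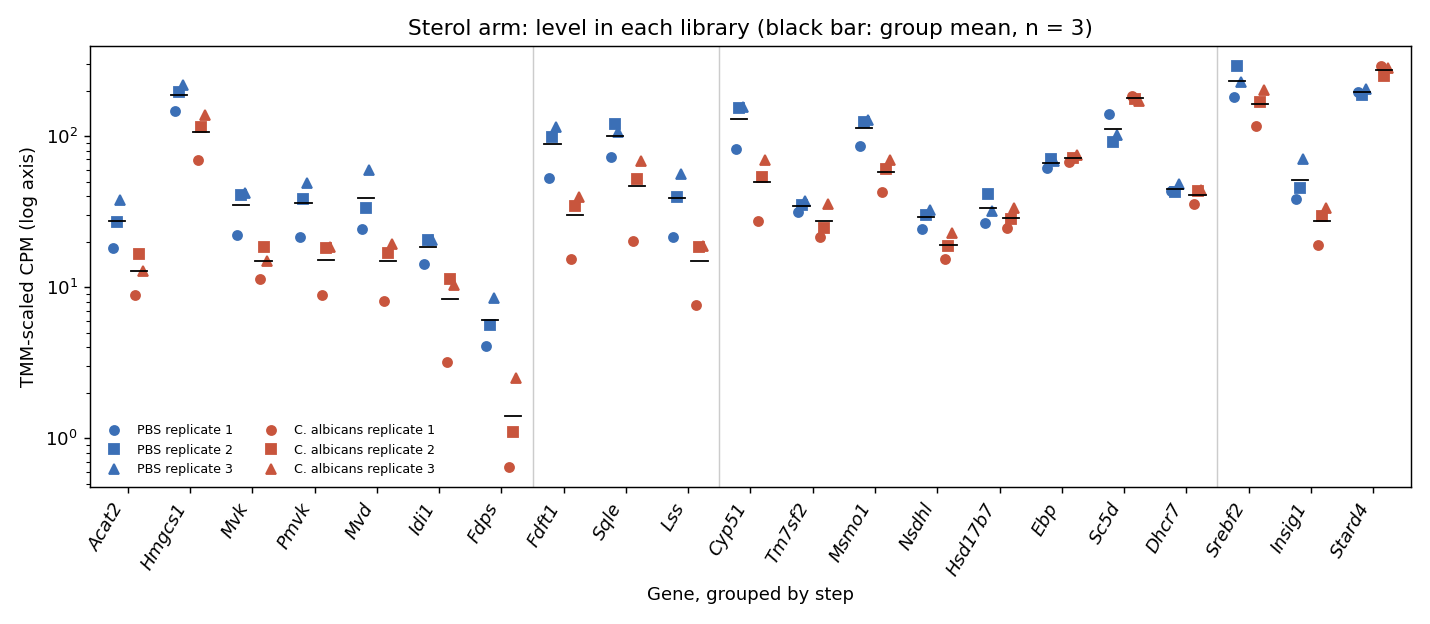
Level of each of the 21 sterol arm genes in each library, as TMM-scaled CPM on a log axis, in pathway order from left to right with grey lines between the mevalonate, squalene and lanosterol, lanosterol to cholesterol, and regulator groups. Black bars are group means (n = 3); the red points (C. albicans) lie below the blue points (PBS) in every gene from Acat2 to Cyp51, and above them in Sc5d and Stard4.

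All 7 genes of the mevalonate steps were lower without overlap, beside 18.1% of all genes, with a median log2 fold change of -1.23. Hmgcs1, the cytosolic synthase that condenses acetyl-CoA with acetoacetyl-CoA, had 146, 197 and 219 CPM in PBS replicates 1 to 3 and 69.1, 115 and 137 CPM in C. albicans replicates 1 to 3. The highest C. albicans library thus came close to the lowest PBS library, and the log2 fold change was -0.81 (SE 0.28, adjusted p 0.128). Mvk, mevalonate kinase (ENSMUSG00000041939, chromosome 5, 114444269 to 114460591, mm10), had 22.3, 40.6 and 42.2 CPM with PBS and 11.4, 18.4 and 14.9 CPM with C. albicans. It had the lowest p of the arm, with a log2 fold change of -1.23 (SE 0.29, adjusted p 0.082), and PBS replicate 1 was the lowest of its group.

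In every mevalonate gene, Hmgcs1 and Mvk included, C. albicans replicate 1 was the lowest library of all. Pmvk, Mvd and Idi1, the next kinase, the decarboxylase and the isomerase that form the prenyl building blocks, stood at -1.25 (SE 0.39), -1.39 (SE 0.44) and -1.15 (SE 0.46) on the log2 scale, and Acat2, the thiolase at the entry, had -1.11 (SE 0.33). Fdps, farnesyl diphosphate synthase, had 4.08, 5.58 and 8.49 CPM with PBS and 0.642, 1.09 and 2.50 CPM with C. albicans, a log2 fold change of -2.09 (SE 0.56, adjusted p 0.089). The Fdps count is uncertain, because 1062 bases of its transcripts match the processed pseudogene Gm3571 at 98.9% identity, and that pseudogene held 681 counts over all libraries against 552 for Fdps itself. Gm3571 had 7.01 ± 2.77 CPM with PBS and 2.35 ± 0.923 CPM with C. albicans (n = 3 each), also lower in every C. albicans library. Acat2 and Idi1 also have near-identical copies in the annotation, which held 57 counts (Acat3) and at most 118 counts (Gm35570) over all libraries. By sequence, 445 bases of Acat2 also match Tcp1 transcripts at 98.7% identity in the opposite orientation. Tcp1 held 10256 counts against 2913 for Acat2. Reads from such a near-identical stretch may be misplaced, so the Acat2 count is uncertain.

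The squalene and lanosterol steps were lower without overlap in all 3 genes, beside 18.1% of all genes tested. Fdft1, squalene synthase, which commits farnesyl diphosphate to sterols, had 52.8, 99.3 and 116 CPM with PBS and 15.4, 34.5 and 39.6 CPM with C. albicans. No value of one group reached the other, and the log2 fold change was -1.58 (SE 0.43, adjusted p 0.093). Fdft1 shares 774 exonic bases, 18.3% of its exons, with Ctsb on the opposite strand. Ctsb had 527 ± 118 CPM with PBS and 576 ± 24.5 CPM with C. albicans. It held 77064 counts over all libraries against 8686 for Fdft1, so with the strand setting unknown the Fdft1 count is uncertain. The part of Ctsb reads in the Fdft1 values was not tested. Sqle, squalene epoxidase, had 73.0, 120 and 106 CPM with PBS and 20.2, 52.4 and 68.7 CPM with C. albicans, a log2 fold change of -1.08 (SE 0.44, adjusted p 0.165). Here the gap between the groups was narrow, since C. albicans replicate 3 lay just under PBS replicate 1. Lss, which closes the ring to lanosterol, had -1.38 (SE 0.46).

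The 8 genes from lanosterol to cholesterol were divided, with 3 lower and 1 higher without overlap, beside 18.1% and 17.6% of all genes. The lower ones were Cyp51, Msmo1 and Nsdhl, while Tm7sf2, which stands between Cyp51 and Msmo1 in the pathway, overlapped. Cyp51, the demethylase that acts on lanosterol, had a log2 fold change of -1.38 (SE 0.40, adjusted p 0.098). Msmo1, the oxidase that starts removal of the methyl groups, had 85.9, 123 and 128 CPM with PBS and 42.8, 61.0 and 69.6 CPM with C. albicans, with -0.96 (SE 0.23, adjusted p 0.083). Nsdhl, which acts after Msmo1, had -0.60 (SE 0.19). The groups overlapped for Tm7sf2 (a sterol reductase, -0.33), Hsd17b7 (a ketosterol reductase, -0.21) and Dhcr7 (the reductase of the final step, -0.12), with standard errors of 0.20, 0.20 and 0.13. They also overlapped for Ebp, the sterol isomerase, at 0.10 (SE 0.11). The sign of Hsd17b7 turned without PBS replicate 2 (0.044), that of Dhcr7 without replicate 1 of both groups (0.071) and that of Ebp under library totals (-0.18) and with a smooth muscle covariate (-0.012).

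Sc5d, the desaturase that acts late in the pathway on lathosterol, went the other way. It had 140, 90.7 and 102 CPM with PBS and 185, 175 and 172 CPM with C. albicans, a log2 fold change of 0.68 (SE 0.18, adjusted p 0.089). The 3 C. albicans libraries lay close together and above every PBS library. Stard4, which carries sterol between membranes, likewise had 196, 187 and 205 CPM with PBS and 291, 251 and 282 CPM with C. albicans, with 0.49 (SE 0.13, adjusted p 0.088). Both kept a positive sign under every alternative that was run, at 0.40 or more for Sc5d and 0.20 or more for Stard4.

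The regulators of the sterol arm had intermediate values. Srebf2, which encodes SREBP-2, had 181, 289 and 227 CPM with PBS and 117, 168 and 203 CPM with C. albicans. C. albicans replicate 3 lay above PBS replicate 1, so the groups overlapped, and the log2 fold change was -0.52 (SE 0.26, adjusted p 0.222). Insig1, which holds the SREBP-SCAP complex in the endoplasmic reticulum and is itself an SREBP target, had 38.1, 45.6 and 70.5 CPM with PBS and 19.1, 29.4 and 33.7 CPM with C. albicans. These did not overlap, with -0.91 (SE 0.30, adjusted p 0.117).

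The fatty acid arm was more divided. Of its 14 tested genes, 10 had a log2 fold change below 0 (71.4%, near the 60.5% of all genes), with a median of -0.43 over the arm. In the same arm 5 were lower without overlap, which is 35.7% beside 18.1% of all genes, and 1 was higher without overlap, 7.14% beside 17.6%. No member passed the adjusted threshold of 0.05 in edgeR's test. The adjusted p was under 0.1 for 4 lower members (Acly, Acacb, Fasn and Fads1) and 1 higher (Srebf1), beside 6.04% and 6.61% of all genes, and the unadjusted p was under 0.05 for 5 and 1, beside 16.2% and 13.4%. By the DESeq2 Wald test, 3 lower and 1 higher of the 15 passed after adjustment, beside 3.53% and 4.87% of all 29009 genes, low counts included. The difference between the arms was not tested. The remaining member, Thrsp, had too few counts to be tested.

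**Figure D2:**
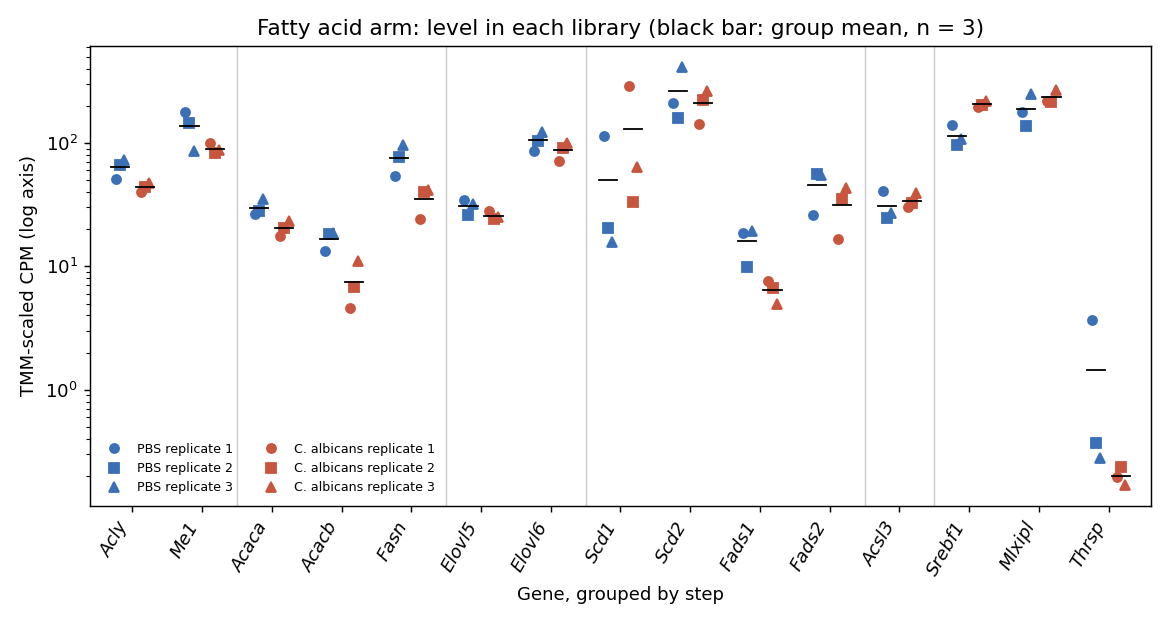
Level of each of the 15 fatty acid arm genes in each library, as TMM-scaled CPM on a log axis, grouped from precursor supply on the left to regulators on the right. Black bars are group means (n = 3); Acly, Acaca, Acacb, Fasn and Fads1 lie lower with C. albicans (red) and Srebf1 higher, while Scd1 is high in replicate 1 of both groups and Thrsp in PBS replicate 1.

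Of the 2 genes of precursor supply, 1 (Acly) was lower without overlap, and of the carboxylases and synthase all 3 were (Acaca, Acacb and Fasn). Each of these had an adjusted p above 0.05 in edgeR's test, and 18.1% of all genes were lower without overlap. Acly, which splits citrate to cytosolic acetyl-CoA for both arms, had 51.2, 66.0 and 72.6 CPM with PBS and 39.7, 44.0 and 46.9 CPM with C. albicans, with a log2 fold change of -0.54 (SE 0.16, adjusted p 0.097). Fasn, fatty acid synthase (ENSMUSG00000025153, chromosome 11, 120805846 to 120824547, mm10), had 54.2, 76.7 and 95.4 CPM with PBS and 24.0, 40.1 and 41.3 CPM with C. albicans, with -1.10 (SE 0.28, adjusted p 0.087). Neither gene overlapped between the groups, and PBS replicate 1 was the lowest of its group for both. Acaca, the cytosolic acetyl-CoA carboxylase that feeds the synthase, had 26.5, 27.9 and 34.9 CPM with PBS and 17.8, 20.3 and 23.4 CPM with C. albicans, with -0.54 (SE 0.17, adjusted p 0.107). The processed pseudogene Gm5182 matches 6118 bases of Acaca at 99.2% identity and held 419 counts against 3593 for Acaca. Acacb, the carboxylase at the mitochondrial surface, whose product restrains fatty acid oxidation, had 13.3, 18.2 and 18.5 CPM with PBS and 4.64, 6.80 and 10.98 CPM with C. albicans, with -1.15 (SE 0.33, adjusted p 0.097). Me1, the malic enzyme that supplies NADPH, overlapped between the groups (-0.60, SE 0.26), and without PBS replicate 1 it had -0.25.

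Of the 6 elongases and desaturases, 5 had a log2 fold change below 0, beside 60.5% of all genes. Only Fads1 was lower without overlap, near the share of all genes (18.1%). Elovl6, which extends palmitate, and Elovl5, which extends polyunsaturated chains, both stood at -0.26 on the log2 scale (SE 0.18 and 0.14) with overlap. Fads1, a desaturase of polyunsaturated fatty acid synthesis, had 18.7, 9.84 and 19.4 CPM with PBS and 7.55, 6.65 and 4.96 CPM with C. albicans. It was lower without overlap, at -1.32 (SE 0.31, adjusted p 0.081). Fads2, its neighbour on chromosome 19 and the desaturase that acts before it, had -0.54 (SE 0.42) with overlap.

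The stearoyl-CoA desaturases, which make monounsaturated fatty acids, varied more between libraries than between groups. Scd1 had 113, 20.5 and 15.8 CPM with PBS and 290, 33.3 and 63.5 CPM with C. albicans, a log2 fold change of 1.38 (SE 1.06, adjusted p 0.394). Replicate 1 was by far the highest of each group. Without C. albicans replicate 1 the value was -0.031, without PBS replicate 1 it was 2.92, and without replicate 1 of both groups it was 1.54 (adjusted p 0.046 in edgeR's test). Scd2 had 212, 160 and 413 CPM with PBS and 143, 223 and 265 CPM with C. albicans, with -0.31 (SE 0.40, adjusted p 0.601), and the sign turned without PBS replicate 3 (0.21). Scd1 and Scd2 share a stretch of 623 bases at 95.5% identity, so that some reads may not be told apart. Counted per kilobase, Scd1 made up 37.5%, 12.7% and 4.12% of the pair in PBS replicates 1 to 3 and 69.6%, 14.4% and 21.3% in C. albicans replicates 1 to 3.

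Srebf1 stood apart from most of its targets. This gene (ENSMUSG00000020538, chromosome 11, 60199089 to 60222581, mm10) had 140, 96.1 and 107 CPM with PBS and 196, 202 and 219 CPM with C. albicans. The 3 C. albicans libraries lay close together and above all PBS libraries, with a log2 fold change of 0.85 (SE 0.17, adjusted p 0.078), the lowest p of the fatty acid arm. The value stayed between 0.57 and 1.17 under the alternatives that were run. Per kilobase, Srebf1 made up 49.5%, 29.8% and 37.6% of the sum of Srebf1 and Srebf2 with PBS and 68.1%, 60.5% and 57.9% with C. albicans, again without overlap. The table counts the gene as a whole, so its 2 main forms, SREBP-1a and SREBP-1c, cannot be told apart. Mlxipl, which encodes ChREBP, had 179, 136 and 248 CPM with PBS and 219, 214 and 269 CPM with C. albicans, with overlap (0.32, SE 0.24, adjusted p 0.380). Acsl3, which activates fatty acids for lipid droplets, had 0.14 (SE 0.22) and turned to -0.13 under library totals.

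Thrsp, a nuclear protein that raises lipogenesis in liver and fat, was close to the limit of detection outside 1 library. It had 3.67 CPM in PBS replicate 1 and 0.372 and 0.278 CPM in PBS replicates 2 and 3, while C. albicans replicates 1 to 3 had 0.197, 0.238 and 0.170 CPM. These last are 4, 5 and 4 counts, near the 3 counts that a count of 0 would allow. PBS replicate 1 was also the library with adipocyte transcripts. Adipoq, Cfd and Retn, defining markers of fat cells, had 117, 638 and 65 counts there. Elsewhere they had at most 1, 15 and 2 counts. The summed level of the 9 adipocyte markers was 87.9 to 292 CPM with PBS and 186 to 301 CPM with C. albicans, mostly from Cidec and Lipe, which other cells also express, and Lep was at 0 in all libraries. Of the fatty acid members, Me1, Elovl5, Acsl3 and Thrsp were highest of all 6 libraries in PBS replicate 1, and Scd1 and Srebf1 had their highest PBS value there. Fasn, Acly, Acaca, Acacb, Elovl6 and Fads2 had their lowest PBS value in it. The part of fat cells in these values was not tested.

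**Figure D3:**
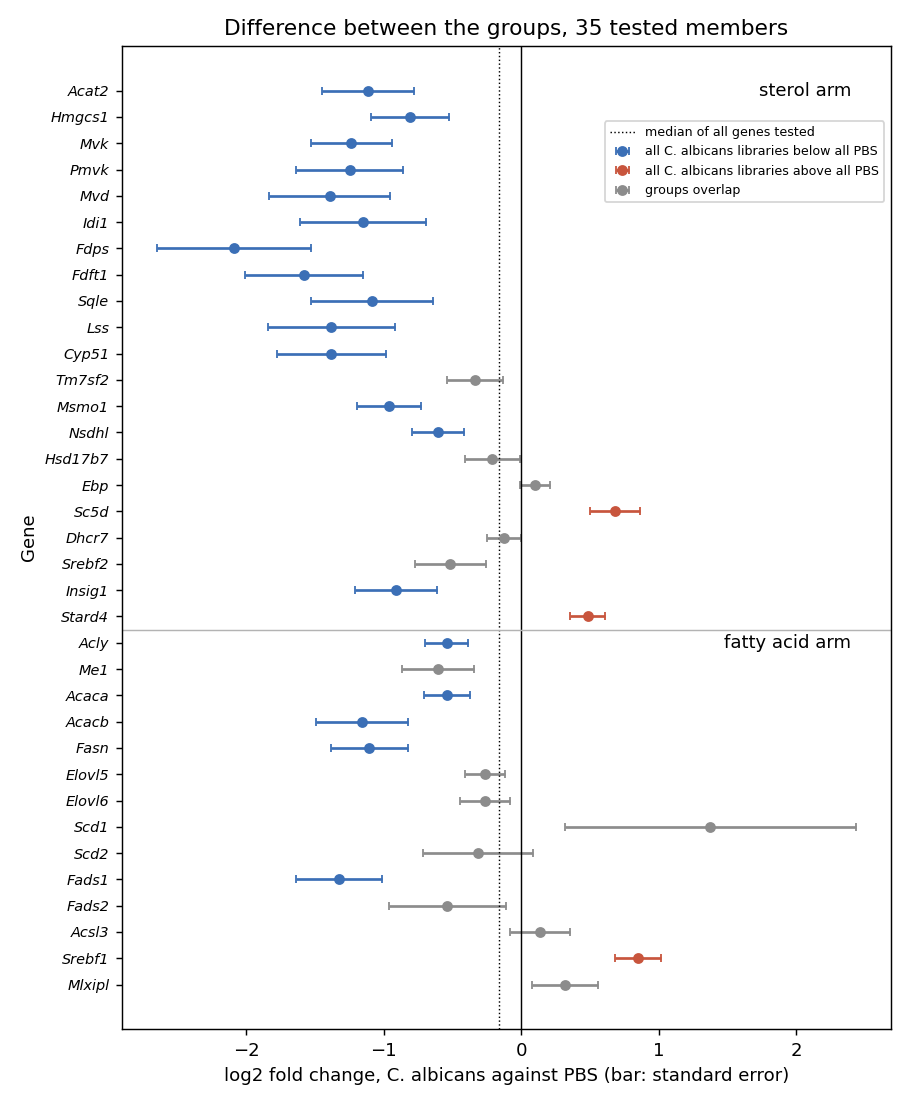
Log2 fold change, C. albicans against PBS, of the 35 tested members with its standard error from edgeR's quasi-likelihood fit, the sterol arm above the grey line and the fatty acid arm below it. Blue and red points are genes whose groups do not overlap, grey points those that overlap, and the dotted line is the median of all genes tested (-0.16); the points from Acat2 to Cyp51 are all blue, and Sc5d, Stard4 and Srebf1 are red.

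Levels per kilobase of gene length differed widely among members and were spread over both arms. With PBS the mean was highest for Scd2 (48.0 CPM per kilobase), Hmgcs1 (40.8), Me1 (35.5) and Stard4 (35.1). With C. albicans it was highest for Stard4 (49.1), Mlxipl (42.3), Scd2 (38.6) and Srebf1 (36.5), while Hmgcs1 stood at 23.3. Over all 6 libraries it was lowest for Thrsp (0.375), Fdps (0.887), Acacb (1.25) and Acaca (1.47). The deposited length equals the union of annotated exons for 31 of the 36 members. It is shorter for Fads1, Fads2, Scd1 and Scd2 and longer for Tm7sf2, with 1508 against 3295 bases for Fads2 as the widest ratio, so levels per kilobase of these genes depend on that choice.

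Within the C. albicans group, replicate 1 was the lowest of all 6 libraries for 18 of the 21 sterol genes, and PBS replicate 3 was the highest for 15. The mean log2 CPM of the sterol arm was 4.42, 5.09 and 5.27 in C. albicans replicates 1 to 3 and 5.39, 5.84 and 6.02 in PBS replicates 1 to 3. The fatty acid arm had 4.98, 4.995 and 5.18 with C. albicans and 5.62, 5.19 and 5.42 with PBS, a narrow gap in which PBS replicate 2 and C. albicans replicate 3 nearly met. Thrsp enters this mean with 9 counts in PBS replicate 2 and 4 in C. albicans replicate 3, so the gap may rest on it. By summed level the fatty acid arm did not differ, with 1165 ± 192 CPM with PBS and 1161 ± 95.3 CPM with C. albicans. That of the sterol arm was 1619 ± 274 and 1204 ± 192 CPM (mean ± SD, n = 3 each). The median coefficient of variation between libraries of a group was 23.3% with PBS and 27.3% with C. albicans for sterol genes, and 28.3% and 16.9% for fatty acid genes.

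Markers of other cell programmes also lay apart between the groups. The 15 mature enterocyte markers all had positive log2 fold changes (median 1.42), with Fabp1, Mgam and Lct at 2.23, 1.61 and 2.79, and their summed level was 11173 to 38407 CPM with PBS and 58155 to 81473 CPM with C. albicans. By mean log2 CPM of these markers the libraries stood in exactly the reverse order of the sterol arm, from C. albicans replicate 1 at 11.60 down to PBS replicate 3 at 8.61. The 15 proliferation markers all had negative log2 fold changes (median -0.998), with Mki67, Cenpe and Aurka at -1.23, -1.37 and -1.14, and summed to 309 to 618 CPM with PBS and 216 to 299 CPM with C. albicans. The part of either programme in the arms was not tested. All 10 smooth muscle markers had log2 fold changes below 0 (median -2.69) with overlap between the groups. All 9 fibroblast markers were also below 0 (median -2.14), and of these Fn1 was lower without overlap (-3.47), with summed levels of 107 to 761 CPM with PBS and 12.8 to 185 CPM with C. albicans. The part of these cells in the arms was not tested. When the smooth muscle score was added as covariate, the median log2 fold change of the sterol arm was -1.41 in place of -0.96, and that of the fatty acid arm -0.57 in place of -0.43.

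**Figure D4:**
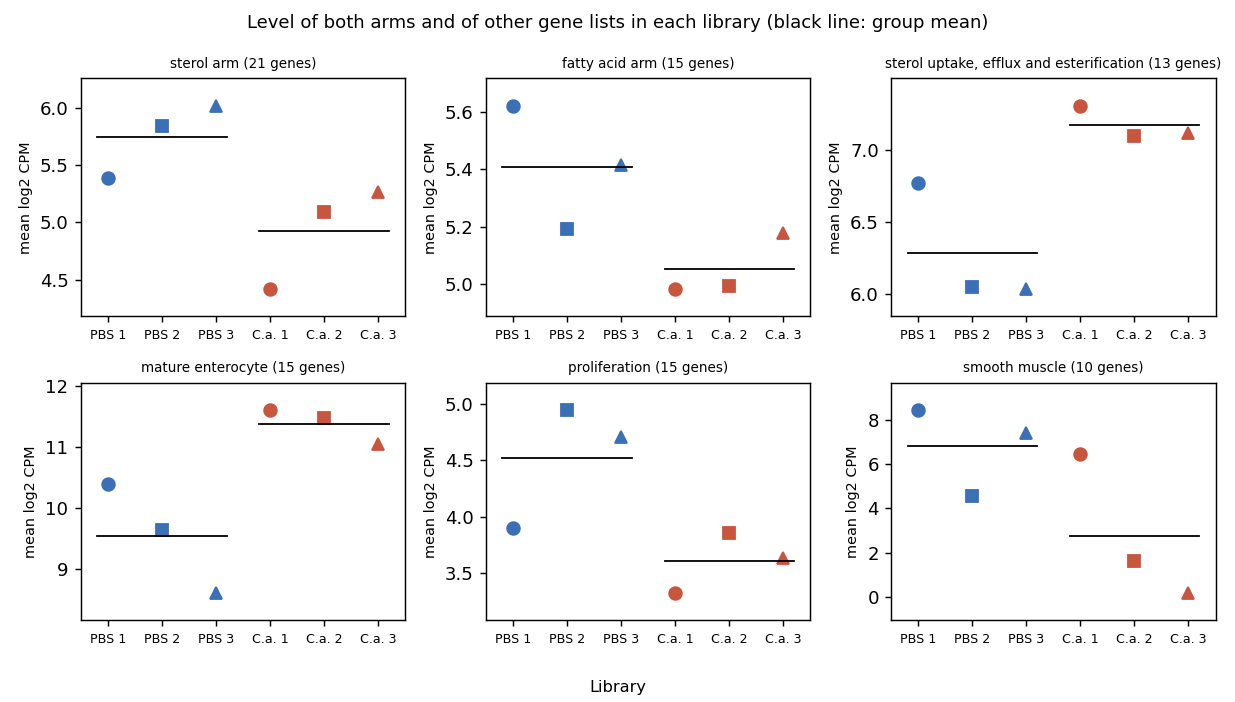
Mean log2 CPM of the 21 sterol and 15 fatty acid arm genes and of 4 other gene lists in each library, PBS in blue and C. albicans in red, each panel with its own axis; black lines are group means (n = 3). The sterol arm and the mature enterocyte markers order the 6 libraries in opposite ways, while smooth muscle markers vary widely within both groups.

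Genes that sense or move sterol were mostly on the higher side. Of 10 genes that process SREBPs or sense sterol, 5 were higher without overlap and 1 lower (50% beside 17.6%, and 10% beside 18.1%). An adjusted p under 0.1 was reached by 2 higher and 0 lower ones, beside 6.61% and 6.04% of all genes. Erlin2 and Erlin1, endoplasmic reticulum proteins that restrain SREBP activation, stood at 0.80 (SE 0.15) and 0.79 (SE 0.19) on the log2 scale, and Rnf145, a sterol-regulated ubiquitin ligase, -0.63 (SE 0.22). Scap and the proteases Mbtps1 and Mbtps2 overlapped between the groups, at -0.36, 0.10 and 0.16. Of 13 genes of sterol uptake, efflux and esterification, 9 were higher without overlap and 1 lower (69.2% beside 17.6%, and 7.69% beside 18.1%). The exporters Abca1, Abcg8 and Abcg5 had 2.83, 1.41 and 1.24 and led by p, while the exporter Abcg1 overlapped between the groups (0.29, SE 0.43). Abca1, Abcg8 and Abcg5 are known targets of liver X receptors, whose activity was not tested.

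Of 9 genes that draw on mevalonate for other products, 2 were lower and 1 higher without overlap (22.2% and 11.1%), close to the share of all genes, with Coq2 at -0.53, Ggps1 at -0.28 and Pdss2 at -0.54. Of 18 tested companions of fatty acid synthesis, 5 were lower and 1 higher without overlap (27.8% beside 18.1% of all genes, and 5.56% beside 17.6%). The lipase-like gene Pnpla3, an SREBP-1 target, had 1.51 to 2.15 CPM with PBS and 0.247 to 0.297 CPM with C. albicans, a log2 fold change of -2.67 (SE 0.38, adjusted p 0.073). Acsl4, which activates arachidonic acid, had -1.49 (SE 0.37), and Fads3 had -1.14 (SE 0.30). Acsl5, an acyl-CoA synthetase abundant in enterocytes and the 1 companion higher without overlap, had 414 to 1253 CPM with PBS and 1722 to 2664 CPM with C. albicans (1.37, SE 0.42, adjusted p 0.106). No gene of these 4 lists passed the adjusted threshold of 0.05 in edgeR's test.

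Which library was left out changed these counts, for members and for all genes. At an adjusted p under 0.1 over all genes, 12 of the 35 tested members passed with all libraries, beside 12.6% of all genes. Without PBS replicate 1, 19 members and 26.1% of all genes passed, and without C. albicans replicate 1, 2 members and 8.69%. When PBS replicate 2, PBS replicate 3 or C. albicans replicate 2 was left out, 0 members and 0 of all genes passed, and without C. albicans replicate 3, 0 members and 1 gene of all. At an unadjusted p under 0.05, the 14 lower sterol members (16.2% of all genes were lower at this p) became 12, 8 and 5 without PBS replicates 1, 2 and 3, beside 14.8%, 13.9% and 8.63% of all genes. Without C. albicans replicates 1, 2 and 3 they were 13, 11 and 15, beside 18.7%, 9.26% and 9.27%.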

How the data were processed

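Raw read counts, 1 deposited column for each of 6 libraries and 1 line for each Ensembl gene, were the only measurements, and the authors had not normalized them. Per the submitters' processing notes, the tools were Trim Galore 0.6.7, HISAT2 2.2.1 and featureCounts 2.0.1, with mm10. No source used here gives parameters, strand setting or annotation release, so overlapping, antisense or near-identical genes may share or lose reads. Deposited gene lengths equal the union of GENCODE M21 exons for 98.0% of 54409 shared genes.

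Counts were tested in edgeR 4.0.16 (R 4.3.3). Of 29031 genes with a count, filterByExpr (min.count 10, min.total.count 15) left 16313. Scaling was by TMM, and glmQLFit (robust=TRUE) with glmQLFTest gave two-sided p-values, C. albicans against PBS and no covariate, adjusted by Benjamini-Hochberg over all genes at a threshold of 0.05. The F statistic gave standard errors, and log2 CPM had a prior count of 2. Where a gene had no count, up to 3 counts are allowed (0.113 to 0.148 CPM, counting error only). No libraries matched within sampling noise. The test was checked on simulated counts with 200 changed genes. Recovery of these was required only at a preset spread between replicates, so the check does not give the power in these libraries. BLAST 2.17.0 compared transcripts (300 aligned bases or more). Alternatives were other scalings, filters and edgeR settings, DESeq2 1.42.0, limma 3.58.1 (voom), a replicate block, a smooth muscle covariate and leaving out libraries.

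The members, lists, motifs and tests were chosen with earlier results of these data known. Values in every library are given for the 6 members of lowest p of each arm and for Srebf1, Srebf2, Insig1, Mlxipl, Hmgcs1, Sqle, Fasn, Acaca, Scd1 and Scd2. From other lists up to 3 genes of lowest p are named. Vil1, Alb, Prss1, Adipoq, Cfd, Retn, Cidec, Lipe, Lep, Scap, Mbtps1, Mbtps2, Abcg1, Acsl5, Tcp1 and Thrsp were given values after these were seen.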

Additional observations from a re-analysis of the deposited data

How the results depend on the processing

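At an adjusted p under 0.05 the counts were 0 over all genes and in both arms, and several alternatives gave more. Over all genes, higher and lower calls were 1 and 2 with upper quartile scaling, 14 and 174 with library totals, 1414 and 1024 with the DESeq2 Wald test, 1232 and 1337 with limma-voom and quality weights, 295 and 257 without a count filter, 10 and 33 for genes whose mean reached 5 CPM, 14 and 28 after adding the smooth muscle covariate, and 1136 and 974 without replicate 1 of both groups. Leaving out 1 library at a time gave 0 to 1695 higher and 0 to 925 lower, and all calls came without PBS replicate 1. In the sterol arm, higher and lower calls were 2 and 9 with the Wald test, 1 and 5 with quality weights, 0 and 2 with the covariate, 1 and 9 without replicate 1 of both groups, and 0 to 2 and 0 to 3 when 1 library was left out. In the fatty acid arm they were 1 and 3 with the Wald test, 1 and 4 with quality weights, 1 and 1 without a filter, 2 and 1 without replicate 1 of both groups, and 0 to 1 and 0 to 2 when 1 library was left out. The cause was not tested.

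With the replicate number as a block, the pairing gave 1030 higher and 1050 lower genes, with 1 and 14 in the sterol arm and 2 and 6 in the fatty acid arm. Deviations of same-numbered libraries correlated at 0.576, 0.357 and 0.0458 over genes, and C. albicans replicate 3 correlated better with PBS replicate 2 (0.408), so the numbers were not taken to pair libraries.

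Of the genes with an unadjusted p under 0.05, the higher ones made up 45.2% with TMM, 54.5% with DESeq2 size factors, 41.0% with upper quartiles and 13.8% with library totals. Under library totals the difference in mean log2 CPM of the fatty acid arm was -0.64 in place of -0.36. Log2 fold changes changed sign for Hsd17b7 (0.044 without PBS replicate 2, -0.33 without C. albicans replicate 3), Ebp (-0.18 with library totals, -0.012 with the covariate), Dhcr7 (0.071 without replicate 1 of both groups), Scd1 (-0.031 without C. albicans replicate 1, 2.92 without PBS replicate 1), Scd2 (0.21 without PBS replicate 3, -0.51 without C. albicans replicate 3) and Acsl3 (-0.13 with library totals). Of the other member values, 618 kept direction and side of the threshold and 74 came to pass it. Depth limits Thrsp and Fdps most.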
